A study of Mus musculus with 2 samples.

Results

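The cerebellins Cbln1, Cbln2, Cbln3 and Cbln4 and the delta glutamate receptor gene Grid1 were described in the embryonic mouse hindbrain. These 5 genes were taken by symbol from 43346 Ensembl genes quantified, and each matched a single gene identifier. Total RNA longer than 200 bases had been sequenced from hindbrain of B6NCrl mice at embryonic day 16.5. Both libraries form a single group, with no mutation or treatment named, and each was made from 10 ng of RNA with spike-in RNA. Tissue was pooled from embryos of both sexes, 37 of them in replicate 2, so a value is the average over a pool and not over animals. Conditions cannot be contrasted here, and since permuting 2 libraries cannot bring p below 0.5, differences are read against their spread and counting error.

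Cerebellins are secreted proteins of the C1q family that organise synapses. In the cerebellum Cbln1 is released from granule cell axons and bridges neurexins on the axon to delta glutamate receptors on Purkinje cell dendrites. Delta receptors resemble ionotropic glutamate receptors in sequence but act largely as adhesion and signalling proteins. Cbln2 also binds neurexins and delta receptors, Cbln4 binds neurexins and the netrin receptor DCC, and Cbln3 needs Cbln1 to leave the cell. Grid1 encodes GluD1, the delta receptor that is found widely in the brain.

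The cerebellins share a pair of TGT or TGC codons, which encode cysteine, near the start of the coding sequence, with 3 codons between them. In Cbln1 the cysteines of this stretch are known to link trimers into hexamers, so it is shown here for the 3 genes whose sequence is printed. The lines give the coding strand 5′ to 3′ from GENCODE M21 transcripts on GRCm38, with the paired codons in capitals.
Cbln1 (chr8:87472115-87472153, minus strand): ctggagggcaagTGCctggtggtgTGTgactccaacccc
Cbln3 (chr14:55884053-55884091, minus strand): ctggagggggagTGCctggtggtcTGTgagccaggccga
Cbln4 (chr2:172042164-172042202, minus strand): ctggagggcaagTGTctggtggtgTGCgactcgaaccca
Counting codons from the start codon as 1, the pair lies at codons 34 and 38 in Cbln1, 64 and 68 in Cbln2, and 37 and 41 in both Cbln3 and Cbln4. It was found once in the first 75 codons of each cerebellin. Coding sequences were 582 bases long in Cbln1, 675 in Cbln2, 594 in Cbln3 and 597 in Cbln4. Over aligned coding bases Cbln1 was 73.1% identical to Cbln2, 68.6% to Cbln4 and 66.6% to Cbln3. Cbln2 and Cbln4 were 72.2% identical. Cbln3 was the most distant, at 62.6% to Cbln2 and 58.9% to Cbln4.

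This divergence bears on the values, since reads from near-identical copies could be split between genes. No stretch of 31 bases in the transcripts of Cbln1, Cbln2 or Cbln4 occurs in a transcript of another gene on either strand. In Cbln3 142 of 4865 such stretches occur in transcripts of other genes on the same strand and 147 on the opposite strand. In Grid1 148 of 5914 occur on the same strand and 86 on the opposite strand. The same-strand stretches of Cbln3 are spread over transcripts of 855 other genes, and those of Grid1 over 3132. Cbln3 and Grid1 have 19 stretches in common, which is not read as a particular likeness between these genes. The deposited posterior SD of the count, a measure of how surely reads were assigned, was 0 for each of the 5 genes in both libraries.

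Both libraries held the markers of hindbrain, and the pools differed in genes of other tissues. TPM is a length-corrected relative abundance, so levels of different genes can be set side by side. Expected counts summed to 41543180 in replicate 1 and 41346951 in replicate 2, so depth was nearly equal. The 6 skeletal muscle markers summed to 190 TPM in replicate 1 and 3.80 TPM in replicate 2. The 9 forebrain markers summed to 53.2 and 28.7 TPM, most of it from Neurod6 at 33.4 and 28.0 TPM, and the other 8 summed to 19.8 and 0.740 TPM, and Emx1, a gene of the developing cortex, was listed at 0 in replicate 2. Of 7 hindbrain markers 6 reached 1 TPM in both libraries, while En2 had 0.340 and 0.460 TPM. The 7 summed to 173 and 183 TPM, and to 72.2 and 71.3 TPM without the highest gene. Of 8 Purkinje cell markers 7 reached 1 TPM in both libraries. The 8 summed to 503 and 569 TPM, most of it from a single gene, and to 152.91 and 156.72 TPM without it. The 3 vascular markers summed to 135 and 127 TPM, and to 30.22 and 23.15 TPM without the highest gene. The 5 spinal and sensory ganglion markers summed to 30.2 and 14.1 TPM, most of it from a single gene. Without it they summed to 5.55 and 1.88 TPM, and only 2 of the 5 reached 1 TPM in both libraries.

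Of the 5 genes, 4 reached 1 TPM in both libraries, beside 63.5% of all protein-coding genes. Cbln2 was the most abundant, followed by Cbln4, Cbln1 and Grid1, while Cbln3 was below 1 TPM. In bulk tissue fewer cells that express a gene and less RNA per cell cannot be told apart.

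Cbln2 (ENSMUSG00000024647.10, chromosome 18, plus strand) had 95.4 TPM in replicate 1 and 89.6 TPM in replicate 2 (92.5 ± 4.07, SD, n = 2). These levels rest on 5194 and 4981 expected counts. Only 1850 of 21474 protein-coding genes were higher in replicate 1, and 1957 in replicate 2. Cbln2 thus stood at percentile 91.4 of protein-coding genes in the first pool and 90.9 in the second.

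Cbln4 (ENSMUSG00000067578.3, chromosome 2, 172036233 to 172043466, minus strand) had 35.0 TPM in replicate 1 and 39.8 TPM in replicate 2 (37.4 ± 3.37, SD, n = 2). It stood at percentiles 77.9 and 80.8 of protein-coding genes, with 2465 and 2870 counts. Cbln1 (ENSMUSG00000031654.11, chromosome 8, 87468405 to 87472609, minus strand) had 21.72 TPM in replicate 1 and 23.96 TPM in replicate 2 (22.8 ± 1.58, SD, n = 2). It stood at percentiles 69.7 and 72.3, with 1134 and 1335 counts. Cbln1, the founding member of the family, was thus below Cbln2 and Cbln4 in both libraries.

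Grid1 (ENSMUSG00000041078.6, chromosome 14, 34820108 to 35583379, plus strand) had 4.65 TPM in replicate 1 and 5.52 TPM in replicate 2 (5.09 ± 0.615, SD, n = 2). It stood near the middle of protein-coding genes, at percentiles 47.16 and 50.02. Its 658 and 749 counts were spread over a message of 6003 bases, against 2902 for Cbln4.

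Cbln3 (ENSMUSG00000040380.9, chromosome 14, 55878913 to 55884392, minus strand) had 0.290 TPM in replicate 1 and 0.490 TPM in replicate 2 (0.390 ± 0.141, SD, n = 2). Only 30 and 48 counts support these levels, and 15245 and 14618 protein-coding genes were higher. Cbln3 is known as a gene of cerebellar granule cells. Of 7 markers of the granule cell lineage all reached 1 TPM in both libraries, and their levels summed to 148 and 149 TPM. Of 5 markers of mature granule cells only Calb2, which other neurons also express, did so. Gabra6, a receptor subunit gene of mature granule cells, was listed at 0 TPM in replicate 1 and 0.0500 TPM in replicate 2. Any link between these markers and the level of Cbln3 was not tested.

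**Figure D1:**
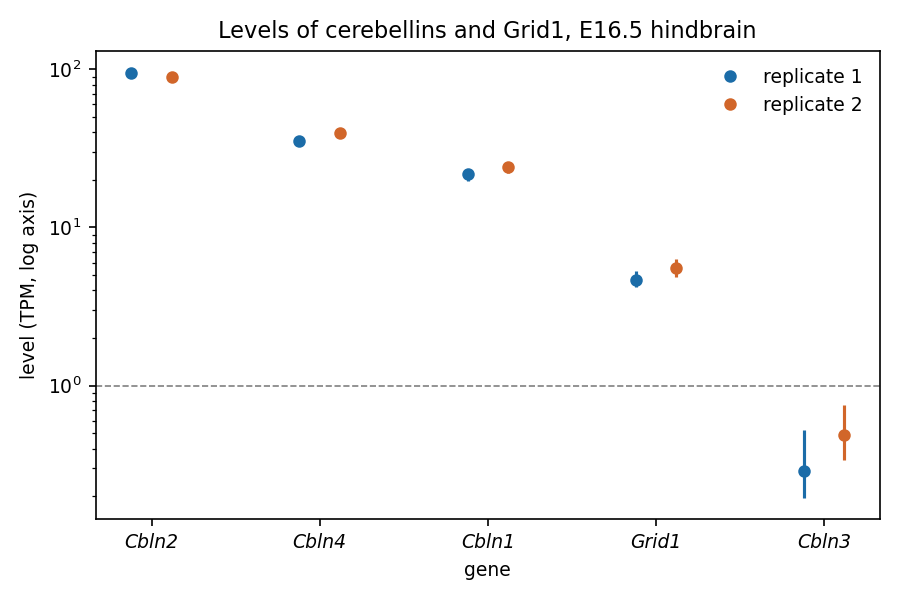
Deposited TPM of each gene (log axis) in both libraries, where a point is a library, a vertical bar its deposited interval and the dashed line 1 TPM. Cbln2 lies highest at 95.4 and 89.6 TPM, and Cbln3 is the gene below the line, at 0.290 and 0.490 TPM.

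No neighbours in this order overlapped, either in their range over the libraries or in the deposited intervals of either library. Cbln2 exceeded Cbln4 by 2.72-fold in replicate 1 and 2.25-fold in replicate 2 (log2 ratio 1.31 ± 0.19, SD, n = 2). Cbln4 exceeded Cbln1 by 1.61-fold and 1.66-fold (0.71 ± 0.030). Cbln1 exceeded Grid1 by 4.67-fold and 4.34-fold (2.17 ± 0.075). Grid1 exceeded Cbln3 by 16.0-fold and 11.3-fold (3.75 ± 0.36), and the low counts of Cbln3 limit this last value. The 4 cerebellins summed to 152 TPM in replicate 1 and 154 TPM in replicate 2. Cbln2 held 60.4% ± 3.06 of that sum, Cbln4 24.4% ± 2.04, Cbln1 14.9% ± 0.934 and Cbln3 0.254% ± 0.0906 (SD, n = 2).

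The transcript models of the cerebellins differed outside the coding sequence. In GENCODE M21 the 4 models of Cbln2 carry the same coding sequence, as do the models Cbln1-201 and Cbln1-202 and the models Cbln3-201 and Cbln3-202. Cbln2-204, with only 21 bases before the coding sequence, took 47.4% of the gene's TPM in replicate 1 and 54.4% in replicate 2. Cbln2-201, with 295 bases before the coding sequence, took 35.9% and 31.7%. Cbln2-203, which has the shortest sequence after the stop codon, took 13.8% and 11.8%, and Cbln2-202 took 2.95% and 2.03%. The order of these 4 models was the same in both pools.

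Cbln1-201, the longer model of Cbln1, took 75.6% of the gene's TPM in replicate 1 and 89.2% in replicate 2. In TPM it had 16.4 and 21.4, with deposited intervals of 13.9 to 18.4 and 19.0 to 23.2 that do not overlap. Cbln1-202 had 5.29 and 2.59 TPM, and its intervals of 1.98 to 7.78 and 0.000131 to 4.52 overlap. The leading model thus differed between the pools by this rule, while the intervals of the whole gene, 19.8 to 22.8 and 22.0 to 24.8, overlapped. Of 8 transcripts of the 5 genes averaging at least 1 TPM, 2 had intervals that did not overlap between libraries, the other being the single model of Cbln4, beside 15.5% of all such transcripts. Cbln3-201 held 85.1% and 74.1% of Cbln3, on 28.6 and 43.6 counts. Grid1-201, the full coding model, held 94.8% and 87.8% of Grid1. The remainder of Grid1 fell to Grid1-202, a model of 825 bases with no coding sequence, which had 4.44 and 12.6 counts.

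**Figure D2:**
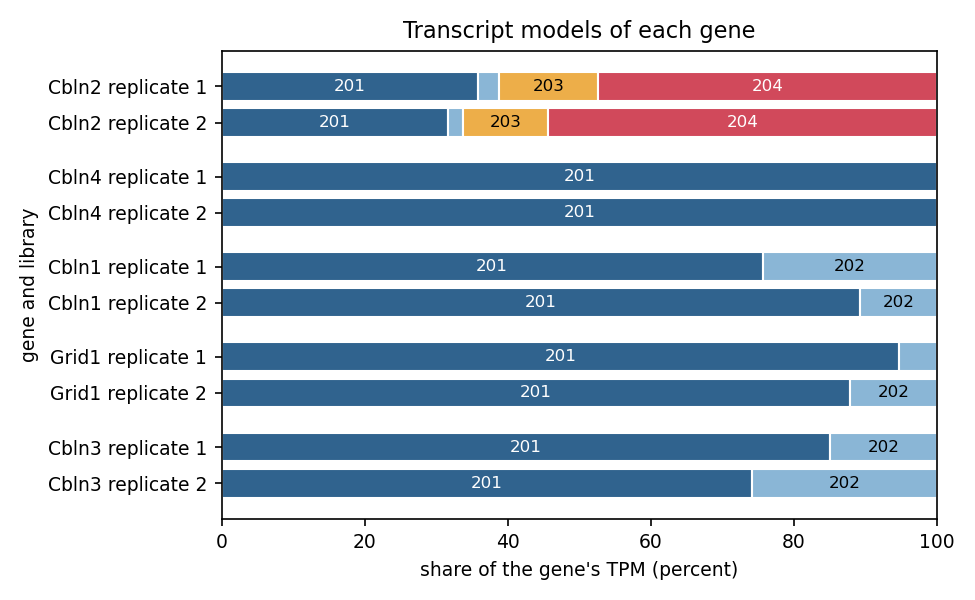
Percent of each gene's TPM taken by its transcript models in each library, as deposited, with the model number inside the bar. Cbln2 is divided among 4 models led by 204, at 47.4% and 54.4%, while Cbln4 has a single model.

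Cbln1 lies head to head with Gm2694, a long intergenic noncoding RNA gene on the opposite strand (chromosome 8, 87460469 to 87525554). In GENCODE M21 the first bases of the nearest models are 203 bases apart. Gm2694 had 77.9 TPM in replicate 1 and 96.2 TPM in replicate 2 (87.1 ± 12.9, SD, n = 2). It was 3.59-fold above Cbln1 in replicate 1 and 4.02-fold in replicate 2. In counts the genes were close, with 1154 and 1388 for Gm2694 against 1134 and 1335 for Cbln1. The leading model of Gm2694, Gm2694-205, has 498 bases and took 70.9% and 71.4% of the gene's TPM. Of the gene's expected counts this short model held 47.9% in replicate 1 and 50.8% in replicate 2.

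The sources used here do not give whether counting used strand, and without strand antisense genes can share reads. The span of Gm2694 covers Cbln1 only because 1 of its 11 models starts on the far side. In GENCODE M21, Gm2694 and Cbln1 have 0 exon bases in common, and the 7 measured models of Gm2694 start beyond the first base of Cbln1. The window of 250 bases before the RefSeq start of Gm2694 (GRCm38.p6, chr8:87472866-87473115, plus strand) lies partly within the first GENCODE exon of Gm2694. It begins beyond the first base of Gm2694-205, 87472812, so it is not upstream of that leading model. The 203 bases between the nearest starts of Cbln1 and Gm2694 are not in it. The window is printed with each CG in capitals.
Gm2694 window: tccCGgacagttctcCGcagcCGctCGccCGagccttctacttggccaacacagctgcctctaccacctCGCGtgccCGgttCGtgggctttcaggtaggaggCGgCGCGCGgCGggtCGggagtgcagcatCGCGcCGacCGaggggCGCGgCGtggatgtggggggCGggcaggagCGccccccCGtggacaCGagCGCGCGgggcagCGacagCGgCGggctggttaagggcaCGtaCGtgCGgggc
It holds 35 CG dinucleotides, a motif that reads the same on both strands, and 2.97% of 32851 RefSeq windows of the same length hold as many or more. The median window holds 6. For comparison, the window before Cbln4 (GRCm38.p6, chr2:172043467-172043716, minus strand), which holds no annotated exon, is printed the same way.
Cbln4 window: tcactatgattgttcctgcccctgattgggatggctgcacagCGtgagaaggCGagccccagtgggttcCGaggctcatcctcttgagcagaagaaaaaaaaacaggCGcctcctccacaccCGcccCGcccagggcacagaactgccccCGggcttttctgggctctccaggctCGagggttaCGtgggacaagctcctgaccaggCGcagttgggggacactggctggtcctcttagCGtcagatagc
It holds 11, a number reached by 35.6% of windows, and the window of Cbln3 holds 2, reached by 81.2%, but that window overlaps an annotated exon of Cbln3. The windows of the other members were not analysed here. These counts describe the letters and say nothing of methylation or binding.

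**Figure D3:**
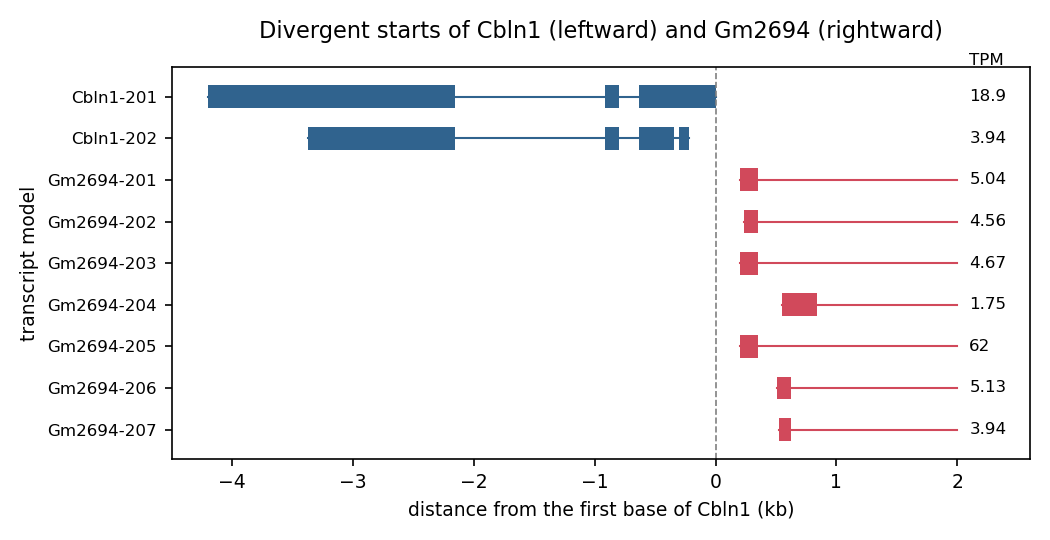
GENCODE M21 exons (boxes) of measured Cbln1 and Gm2694 models by distance in kb from the first base of Cbln1. The mean TPM of each model is at the right, and lines are cut at 2 kb. Cbln1-201 is drawn with its 2800 bases in M21 but was quantified as a model of 2334 bases, and which end differs was not examined. The nearest Gm2694 model starts 203 bases beyond Cbln1, and Gm2694-205 has the highest level, 62.0 TPM.

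Grid1 has 4 annotated genes inside its span. Mir346, a microRNA gene in the same orientation, was listed at 0 TPM in both libraries, which were made from RNA longer than 200 bases. Gm27617, which shares 91 exon bases with Grid1, was also listed at 0. The pseudogenes Gm49034 and Gm19016 are in the newer annotation and were not analysed here. No annotated gene overlaps Cbln2, Cbln3 or Cbln4.

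The partner genes listed here were receptors and scaffold genes of the cerebellin and delta receptor pathway, together with other neurexin ligands, the related C1q-like genes and their receptor, and AMPA receptor subunits for scale. Of these 32 genes, 32 reached 1 TPM in both libraries, against 4 of the 5 cerebellin and Grid1 genes and 63.5% of all protein-coding genes. The lists were chosen with earlier results of these data known, so this count is a description only. The median of the 32 was 23.7 TPM, against 22.8 for the 5 genes. Among the presynaptic receptors, Nrxn3 had 81.53 TPM in replicate 1 and 82.02 TPM in replicate 2 (81.8 ± 0.346, SD, n = 2), below Cbln2 in both libraries. Nrxn2 had 24.6 and 30.5 TPM (27.6 ± 4.19). Of the netrin receptor genes, Neo1 was at 27.9 ± 4.06 TPM and Dcc, a partner of Cbln4, at 16.0 ± 2.26 TPM.

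The C1q-like genes, relatives of the cerebellins that also act at synapses, were lower than Cbln1, Cbln2 and Cbln4. They ran from C1ql4 at 4.30 ± 1.19 TPM to C1ql1 at 7.95 ± 0.530, while their receptor gene Adgrb3 had 45.1 ± 1.20. Other neurexin ligands ran from Nxph3 at 2.42 ± 0.127 TPM to Clstn3 at 148 ± 3.24, with a median of 36.0 over 11 genes. Genes of the delta receptor scaffold ran from Shank2 at 7.39 ± 0.269 TPM to Shank1 at 28.4 ± 0.643, so all 7 had a higher mean than Grid1. The AMPA receptor subunit genes, a scale for glutamate receptors, ran from Gria3 at 17.0 ± 0.0424 TPM to Gria2 at 155 ± 1.31. Grid1 lay below each of the 4 in both libraries.

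By distance in log2(TPM + 1) over the 2 libraries, the partner nearest in level to Grid1 was C1ql3, at a distance of 0.075. For Cbln4 it was Lrrtm3 (0.084), for Cbln1 it was Dlg2 (0.087) and for Cbln2 it was Nrxn3 (0.26). None of the 32 was as low as Cbln3, whose nearest was Nxph3 (1.84). With 2 libraries this measures likeness in level alone.

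**Figure D4:**
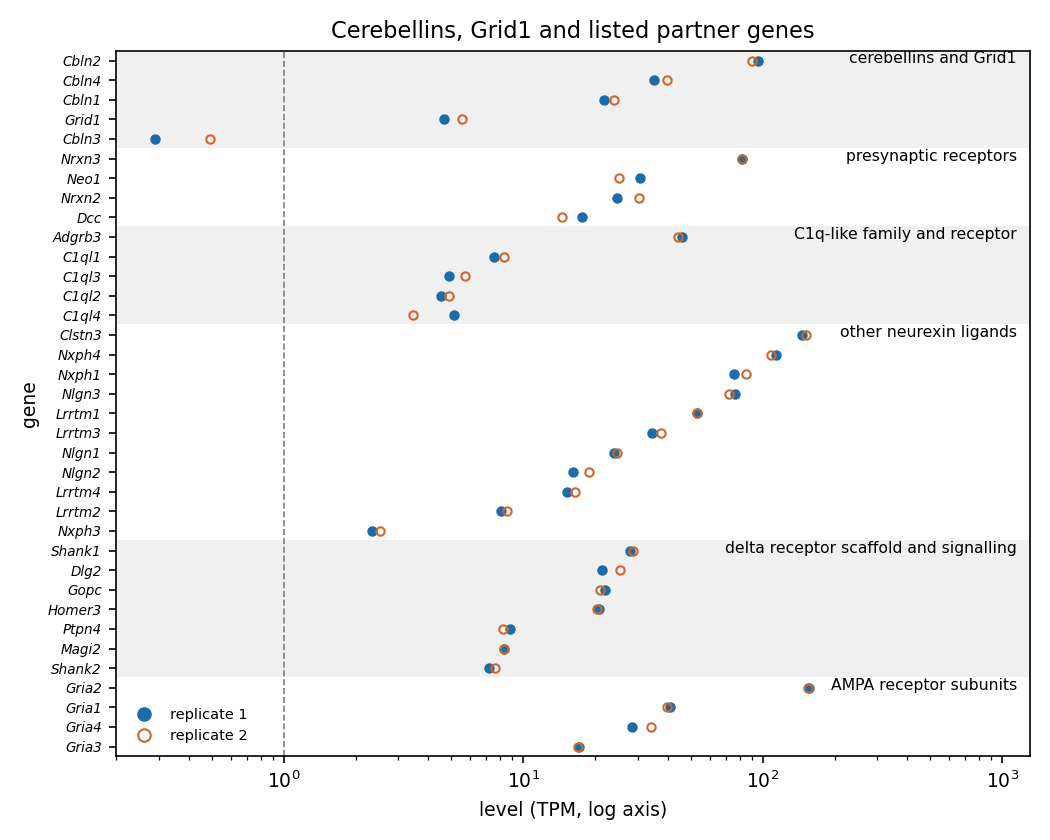
Deposited TPM (log axis) of the 5 genes and the listed partners in both libraries, grouped by list, with a dashed line at 1 TPM and without partners not reported here. Cbln3 is the gene left of the line, and Gria2, with a mean of 155 TPM, is the highest drawn.

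Between the pools, the 4 genes averaging at least 1 TPM were all within 2-fold, and 1.51% of protein-coding genes at that level were not. Ratios are of replicate 2 over replicate 1 in scaled counts, with 95% intervals that cover counting error only. Cbln1 was 1.19-fold (1.10 to 1.29), Cbln4 1.18-fold (1.11 to 1.24) and Grid1 1.15-fold (1.03 to 1.28). Cbln2 was 0.969-fold (0.932 to 1.01). Cbln3, with its few counts, was 1.61-fold (1.00 to 2.64). The first 4 lay well inside the central 95% of protein-coding genes, which ran from -0.65 to 0.45 on the log2 scale.

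The direction for Cbln2 depended on the scaling, with a log2 ratio of -0.046 as above and 0.40 when scaled by spike-in totals, which moves all genes by 0.45. Of the 4 genes, 2 had deposited TPM intervals that did not overlap between the libraries, beside 31.4% of protein-coding genes. Cbln4 was higher in replicate 2 by this rule, beside 9.07% of genes in that direction. Cbln2 was higher in replicate 1, beside 22.3% in that direction, although its interval in scaled counts included 1. The markers of skeletal muscle, 190 TPM in replicate 1 against 3.80 TPM in replicate 2, and of forebrain moved in the same direction, and their part in the Cbln2 difference was not tested.

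Ratios between genes do not depend on the scaling. The count of Cbln2 relative to that of Cbln4 was 0.824 times as high in replicate 2 as in replicate 1 (95% exact conditional interval 0.770 to 0.881). Relative to Cbln1 it was 0.815 times as high (0.745 to 0.891) and relative to Grid1 0.842 times (0.752 to 0.944). Relative to Cbln3 it was 0.599 times as high (0.366 to 0.967). These 4 of 10 pairs, all with Cbln2, had an interval without 1, and the other 6 pairs included it. The share of pairs of other genes with such an interval was not computed, so the count is not read as a trait of Cbln2. The intervals are unadjusted, cover counting error only and share Cbln2, and the biological coefficient of variation between the libraries was 15.7%.

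Gm2694 had a ratio of 1.21-fold (1.12 to 1.31), beside 1.19-fold for Cbln1. Both were thus higher in replicate 2 in counts and in TPM. Cbln4 at 1.18-fold and Grid1 at 1.15-fold, on other chromosomes, were also higher, so this direction was not particular to the neighbours.

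**Figure D5:**
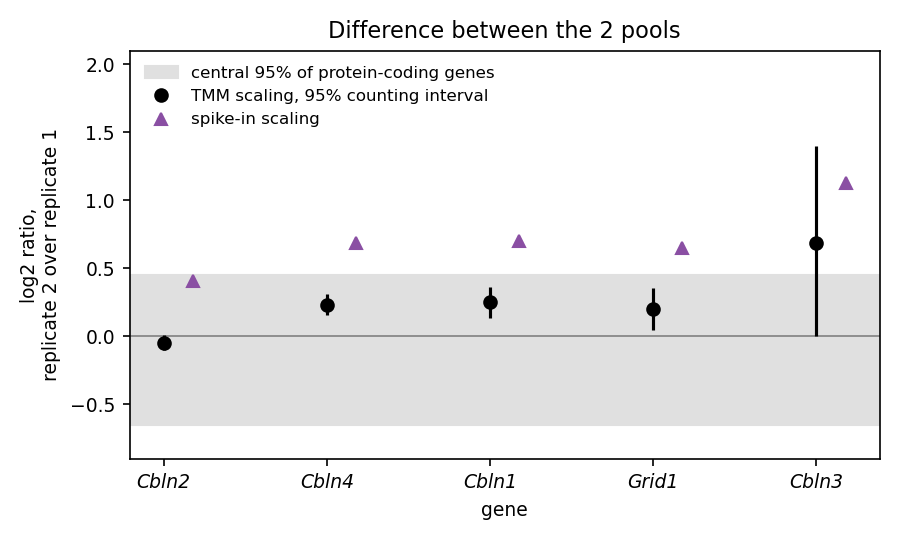
Log2 ratio of replicate 2 over replicate 1 for each gene, under TMM scaling with 95% counting intervals (black) and under spike-in scaling (triangles). The grey band is the central 95% of protein-coding genes under the first scaling alone. Spike-in scaling moves all genes by 0.45, and the band was not moved with the triangles. Under the first scaling Cbln2 lies at -0.046 and the other genes above 0, while under spike-in scaling all 5 lie above 0.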

How the data were processed

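The authors quantified each of 2 hindbrain pools separately on mm10 and GENCODE M4, according to notes deposited with the files. Which tool they used is not given here in any label or header. TPM was scaled over all features, spike-ins included. Per the file headers, genes and transcripts have expected counts, TPM, FPKM and, for transcripts, the percent of the gene's TPM. The authors also deposited posterior mean TPM, posterior SDs and interval bounds on TPM, treated as scores, whose level the headers do not state. They held the TPM of 95.5% and 95.8% of genes above 1 TPM. Names and positions came from GENCODE M21 (GRCm38), with 42462 of 43346 identifiers matched, and windows from RefSeq. Exons, distances and coding sequences are thus those of M21, where some models differ in length from those quantified.

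Expected counts were rounded and scaled by TMM in edgeR 4.0.16 (R 4.3.3) with a prior count of 0.5, after a test on simulated counts. Alternatives used DESeq2 1.42.0 size factors and spike-in totals. Exact intervals came from SciPy 1.17.1. The chi-square of counts was 23.9 per degree of freedom over 17947 genes, so the libraries differed beyond sampling noise. That they are separate pools rests on the labels.

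The members and lists were chosen with earlier results of these data known. Named were all members, the overlapping genes, the presynaptic receptors, the highest and lowest of other lists and the nearest partner of each member. C1ql1, Calb2, En2 and Neurod6, and the genes in the closing section, were named after their values were seen. The sequence of Cbln2 is not reported here. Some genes that enter the counts and sums of the lists are not reported here by name.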

Additional observations from a re-analysis of the deposited data

How the results depend on the processing

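The count of 4 cerebellin and Grid1 genes at 1 TPM was the same at 0.5 TPM, in FPKM, for protein-coding transcripts alone and without either replicate, with a range of 4 to 4. At 5 TPM it was 3, without Grid1, and 28 of the 32 partners remained. All 32 partners passed under the other settings. No gene of the 5 was over 2-fold apart under TMM, with or without the filter on low values. Cbln3, below that filter, had a log2 ratio of 1.13 under spike-in scaling, on 30 and 48 counts. Spike-in scaling put Cbln1 at 0.70, Cbln4 at 0.68 and Grid1 at 0.65, and it moves all genes by 0.45. By counts in place of TPM, Cbln3-202 took 7.01% of its gene against 20.4%, and Grid1-202 took 1.18% against 8.73%, since both models are short. Of the values of single genes and transcripts, 46 stayed within their spread under the alternatives and 10 moved beyond it, none with a test. Leaving out a replicate cannot move a level beyond the SD of n = 2, so those settings could not fail. Nor could the share of the single model of Cbln4 change. The 46 are therefore not read as a measure of robustness. No paired analysis was possible because there is a single group. The intervals cover counting error only, and n = 2 limits every SD.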

Other observations

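Cbln3 also lies head to head with a neighbour. Widening the search to 10 kb around each gene, a distance chosen after the data were seen, raised the number of nearby genes at 1 TPM in both libraries from 1 to 4. Khnyn, on the opposite strand, starts 555 bases from the first base of Cbln3. It had 8.83 TPM in replicate 1 and 6.97 TPM in replicate 2 (7.90 ± 1.32, SD, n = 2), and was 30.4-fold and 14.2-fold above Cbln3. Its window of 250 bases before the RefSeq start holds 15 CG dinucleotides, against 2 in that of Cbln3, but the windows are unlike, since the latter overlaps an annotated exon of Cbln3 and the former holds none. On the other side, 4177 bases away, Nynrin had 9.14 ± 2.88 TPM, and Gm26751, a noncoding gene on the strand of Cbln3, had 6.495 ± 1.25 TPM. The measured neighbours of Cbln3 within 10 kb were all above 5 TPM in both libraries, and any bearing of this on the low counts of Cbln3 was not tested.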
